A study of Sus scrofa with 8 samples.

Results

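The 9 genes followed here carry or control epithelial sodium transport, and they were measured in the 4 tissues of a pig neobladder study. They were picked by symbol: SCNN1A, SCNN1B and SCNN1G, which encode the alpha, beta and gamma subunits of the epithelial sodium channel (ENaC); SLC9A2 and SLC9A3, which encode the sodium-proton exchangers NHE2 and NHE3; SLC12A2, which encodes the cotransporter NKCC1; ATP1B1, which encodes the beta 1 subunit of the sodium pump; NR3C2, which encodes the mineralocorticoid receptor; and HSD11B2, which encodes 11-beta-hydroxysteroid dehydrogenase type 2. Each symbol matched 1 pig Ensembl gene, giving 9 members of the 31907 genes counted, and all 9 were among the 16549 genes that passed the filter on low counts.

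All samples came from Guizhou minipigs aged 8 months, with 2 libraries in each group. MN-Exp is neobladder mucosa of the experimental group; the title of the series names the animal's own peritoneum as a replacement for the mucosa of a reservoir built from ileum. MN-Ctrl is neobladder mucosa of the control group, MNB is mucosa of the normal bladder, and NP is normal peritoneum. The labels give neither the lining of the control reservoir nor the time after surgery, and do not say whether the libraries of a group came from separate animals, so the p-values measure only the spread between these samples, which may be technical.

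Epithelia that absorb sodium let it enter from the lumen and pump it out at the other side. ENaC, assembled from its alpha, beta and gamma subunits, is the entry step in the distal nephron, distal colon and urothelium, and is cleaved by membrane serine proteases and raised by aldosterone through the mineralocorticoid receptor. HSD11B2 inactivates cortisol in such cells and so keeps the receptor selective for aldosterone. In the small intestine sodium enters mainly through NHE3 of the brush border and through nutrient cotransporters, while basolateral NKCC1 loads chloride for secretion and the sodium pump drives both directions.

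Levels are in CPM, the usual per-million rate computed on scaled library totals. After a level, ± marks the SD of 2 libraries, and after a log2 fold change it marks the SE from the fit. A gene is said to rise, fall or pass where edgeR's quasi-likelihood test gave a Benjamini-Hochberg adjusted p under 0.05 over all 16549 genes. Library totals ran from 7939291 to 11884868 counts, and the scaling factors were 0.839 and 0.450 in the MN-Ctrl libraries against 1.09 to 1.24 elsewhere. On library totals alone the midpoint of MN-Exp over MN-Ctrl over the genes tested was a log2 fold change of 0.89, against 0.11 with the scaling, and 77.0% of the called genes were higher in MN-Exp, against 48.0%. Likewise, 18.7% of calls were higher in MN-Ctrl than in MNB on library totals, against 50.4%, and 24.9% were higher in MN-Ctrl than in NP, against 51.2%. For the 9 genes, calls between the neobladders that were lost on library totals are named below; partner genes were not refitted under other scalings.

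The tissues differed in markers of their cell types. The 6 urothelial markers with an Ensembl identifier summed to 3950 and 7797 CPM in MN-Exp, 55.2 and 147 CPM in MN-Ctrl, 9364 and 8455 CPM in MNB, and 475 and 937 CPM in NP. The NP sums were mostly UPK1B and KRT7, at 440.04 and 259 CPM on average, with UPK1A at 0 counts and UPK2 and TP63 at 0.960 and 0.153 CPM. The 6 markers of ileal enterocytes summed to 45.3 and 32.2 CPM in MN-Exp and to 34893 and 158983 CPM in MN-Ctrl. The MNB and NP libraries had 27.5 to 45.2 CPM. FABP6 alone gave 31307 and 157311 CPM of the MN-Ctrl sums. It averaged 29.5 CPM in MN-Exp, 27.5 CPM in MNB and 41.3 CPM in NP. In MN-Ctrl, VIL1, FABP2, APOA4, SLC10A2 and CDX2 averaged 1628, 88.1, 268, 576 and 69.0 CPM. CDX2, the homeobox factor of intestinal epithelium, had 0 counts in both MN-Exp and both MNB libraries. Of 3 mesothelial markers measured, WT1 and BNC1 stood at 26.5 and 3.82 CPM in NP on average, whereas CALB2 had 0 counts in all libraries, and the 3 together reached no more than 0.187 CPM in any library of another group. In bulk tissue, fewer cells of a type and less RNA per cell cannot be told apart.

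The beta and gamma subunits of ENaC were abundant in MN-Exp and MNB and nearly missing from MN-Ctrl and NP. SCNN1B (ENSSSCG00000028923) stood at 104.5 and 129 CPM in MN-Exp, at 0.326 and 0.936 CPM in MN-Ctrl, at 129 and 152 CPM in MNB, and at 0.102 and 0 CPM in NP. SCNN1G (ENSSSCG00000007836) stood at 24.0 and 25.7 CPM in MN-Exp, at 0.109 and 0 CPM in MN-Ctrl, at 30.9 and 49.1 CPM in MNB, and at 0 counts in both NP libraries. For both genes each MN-Exp library was above every MN-Ctrl and NP library, and the MN-Exp and MNB libraries of SCNN1B overlapped.

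SCNN1B rose in MN-Exp over MN-Ctrl by a log2 fold change of 7.64 ± 0.61 (SE, adjusted p = 4.53e-05), as did SCNN1G by 8.28 ± 0.75 (adjusted p = 0.000121). SCNN1G had 1 count over the MN-Ctrl libraries, so its ratio by counts alone, 361, has a 95% counting interval from 64.6 to 14298. Both calls held under all 14 alternative settings, with log2 fold changes of at least 6.97 and 7.71. Against NP, SCNN1B was 2450.2 times higher in MN-Exp by counts (2630 counts against 1, interval 439 to 96814), and SCNN1G was at least 175-fold higher, with the 0 counts of the NP group set to 3. Against MNB neither gene passed: the log2 fold change of MN-Exp over MNB was -0.26 for SCNN1B, with a 95% interval from -1.18 to 0.65 (adjusted p = 0.975), and -0.68 for SCNN1G, from -1.61 to 0.25 (adjusted p = 0.788). These intervals leave room for a fall of more than 2-fold in either gene.

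SCNN1B and SCNN1G lie side by side on chromosome 3 of the Sscrofa11.1 assembly, at 22832259 to 22902592 and 22977940 to 23013384 in the RefSeq annotation, 75.3 kb apart with 0 annotated genes between them. Their log2 levels correlated at r = 0.99 over the 8 libraries, a description of libraries that fall into 4 tissues. Within a library, where the scaling cancels, there were 23.0 and 19.9 counts of SCNN1G per 100 of SCNN1B in MN-Exp, against 24.0 and 32.3 in MNB.

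**Figure D1:**
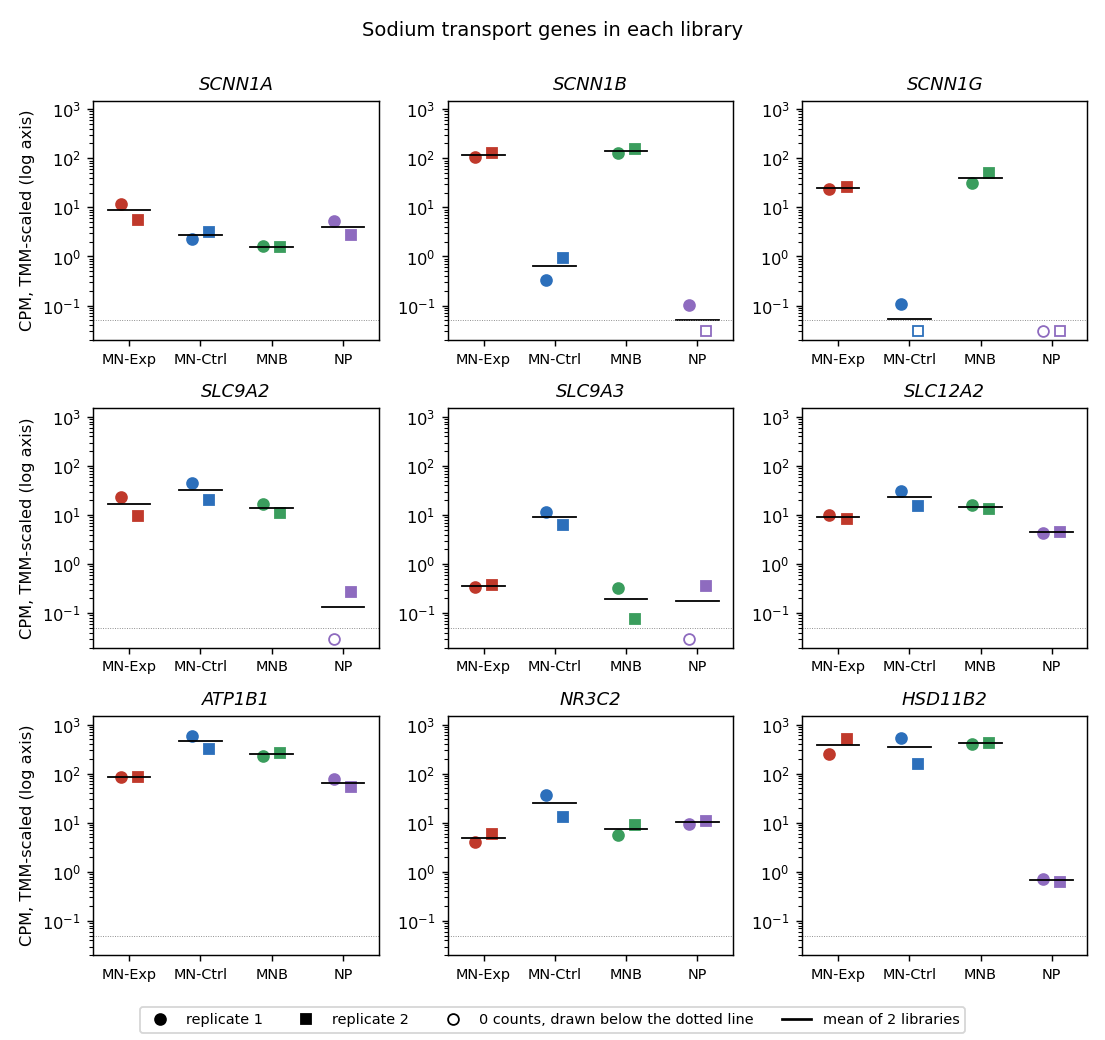
Scaled CPM on a log axis of the 9 sodium transport genes in each library, with circles for replicate 1, squares for replicate 2, lines for the mean of 2 libraries and open symbols for 0 counts. SCNN1B and SCNN1G sit high in MN-Exp and MNB only, SLC9A3 is high in MN-Ctrl only, and HSD11B2 is low in NP only.

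The alpha subunit did not follow the other subunits. SCNN1A (ENSSSCG00000000707, chromosome 5, 64287529 to 64312917) stood at 11.9 and 5.65 CPM in MN-Exp, 2.28 and 3.18 CPM in MN-Ctrl, 1.61 and 1.57 CPM in MNB, and 5.39 and 2.76 CPM in NP. It was highest in MN-Exp and lowest in MNB, with the NP and MN-Ctrl libraries overlapping between them. MN-Exp over MN-Ctrl gave a log2 fold change of 1.70 ± 0.62 (adjusted p = 0.0778, and 0.026 on library totals alone). MN-Exp over MNB gave 2.46 ± 0.63 (unadjusted p = 0.00273, adjusted p = 0.267), a difference that passed with DESeq2 (adjusted p = 0.0288), without the low-count filter (0.0372) and with these 2 groups alone (0.0292).

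Counted within each library, SCNN1A reached 11.4 counts per 100 of SCNN1B in MN-Exp replicate 1 (95% counting interval 9.52 to 13.6) and 4.37 in replicate 2 (3.33 to 5.65), against 1.25 (0.764 to 1.94) and 1.03 (0.637 to 1.58) in the MNB libraries. The MN-Exp libraries differed from each other by more than counting error and both lay above both MNB libraries. These ratios are not corrected for transcript length and compare libraries, not the abundance of alpha with that of beta. The log2 level of SCNN1A correlated with those of SCNN1B and SCNN1G at r = 0.062 and 0.029 over the 8 libraries.

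**Figure D2:**
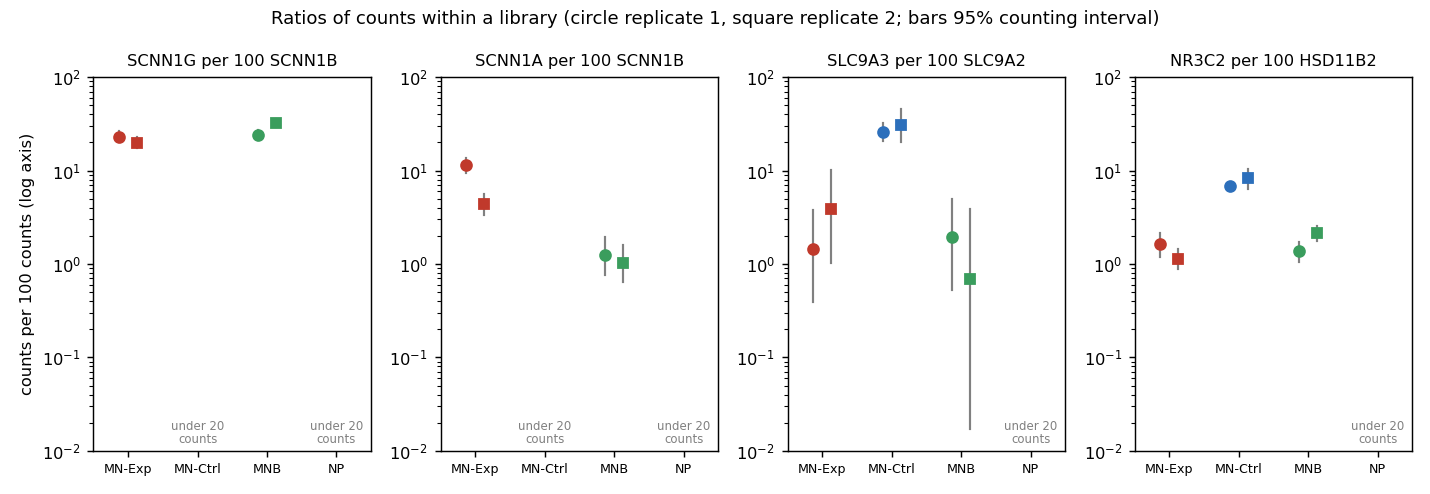
Counts of 1 gene per 100 counts of another within the same library (log axis), by group, with 95% counting intervals; groups in which the denominator has fewer than 20 counts carry no value. SCNN1A per 100 SCNN1B is higher in MN-Exp than in MNB, and SLC9A3 per 100 SLC9A2 and NR3C2 per 100 HSD11B2 are higher in MN-Ctrl than in MN-Exp and MNB.

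Both apical sodium-proton exchangers had their highest mean in MN-Ctrl, but only NHE3 separated the 2 neobladders. SLC9A2 did not pass in MN-Ctrl against MNB (adjusted p = 0.157). SLC9A3 (ENSSSCG00000039413, chromosome 16, 79625555 to 79704084) stood at 0.339 and 0.370 CPM in MN-Exp, 4 counts in each library, and at 11.7 and 6.17 CPM in MN-Ctrl. MNB had 0.323 and 0.0746 CPM and NP had 0 and 0.356 CPM, so the low groups all rested on 8 counts or fewer. SLC9A3 fell in MN-Exp against MN-Ctrl with a log2 fold change of -4.62 ± 1.03 (adjusted p = 0.0105). It passed in 11 of 14 settings and did not pass without MN-Exp replicate 1 (adjusted p = 0.0813), MN-Exp replicate 2 (0.0893) or MN-Ctrl replicate 1 (0.0539).

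SLC9A2 (ENSSSCG00000008153, chromosome 3, 51535798 to 51623003) stood at 23.4 and 9.63 CPM in MN-Exp, 45.3 and 20.02 CPM in MN-Ctrl, 16.7 and 10.9 CPM in MNB, and 0 and 0.267 CPM in NP. MN-Exp overlapped both MN-Ctrl and MNB, and neither difference passed: MN-Exp over MN-Ctrl was -0.99 with an interval from -2.31 to 0.33 (adjusted p = 0.26), and MN-Exp over MNB was 0.26, from -1.06 to 1.58 (adjusted p = 0.996). NP was apart, with 3 counts in all, and MN-Exp was 118 times higher by counts (counting interval 40.1 to 575, adjusted p = 0.000609 in the fit). In MN-Ctrl there were 25.9 and 30.8 counts of SLC9A3 per 100 of SLC9A2 (20.8 to 32.1 and 20.2 to 45.9), against 1.45 and 3.85 in MN-Exp (0.392 to 3.75 and 1.03 to 10.1) and 1.93 and 0.685 in MNB.

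The basolateral genes had their highest mean in MN-Ctrl. SLC12A2 (ENSSSCG00000014255, chromosome 2, 131016430 to 131109307) stood at 10.2 and 8.15 CPM in MN-Exp, 31.1 and 15.5 CPM in MN-Ctrl, 15.7 and 13.6 CPM in MNB, and 4.37 and 4.45 CPM in NP. ATP1B1 (ENSSSCG00000006296, chromosome 4, 81912543 to 81937015) stood at 86.6 and 83.5 CPM in MN-Exp, 587 and 319 CPM in MN-Ctrl, 229 and 268 CPM in MNB, and 77.2 and 52.2 CPM in NP. For both genes the mean level ran in the order MN-Ctrl, MNB, MN-Exp, NP. MN-Ctrl over MNB did not pass for SLC12A2 (adjusted p = 0.27), whose libraries overlapped, or for ATP1B1 (adjusted p = 0.164). Both genes fell in NP against MNB, at adjusted p = 0.0196 and 0.0111. Those NP calls were lost on library totals and without any 1 of the 4 NP and MNB libraries.

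ATP1B1 fell in MN-Exp against MN-Ctrl with a log2 fold change of -2.41 ± 0.45 (adjusted p = 0.00386), which did not pass on library totals (-1.74, adjusted p = 0.0536) or without MN-Exp replicate 2 (adjusted p = 0.0629). SLC12A2 gave -1.35 ± 0.43 and passed narrowly (adjusted p = 0.0472), in only 4 of 14 alternative settings, with -0.69 on library totals (adjusted p = 0.408); a RefSeq gene and a noncoding RNA overlap its span, and without a stated strand setting its counts are uncertain to that extent. Against MNB, ATP1B1 in MN-Exp was -1.55 ± 0.43 (unadjusted p = 0.00467, adjusted p = 0.311); with DESeq2 the adjusted p was 0.0186, with these 2 groups alone 0.00426, and without MN-Ctrl replicate 1 or 2 it was 0.00586 or 0.00608. SLC12A2 in MN-Exp over MNB was -0.68 with an interval from -1.62 to 0.26 (adjusted p = 0.797).

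The mineralocorticoid receptor and its guarding enzyme parted between tissues. HSD11B2 (ENSSSCG00000002777, chromosome 6, 28084087 to 28089256) stood at 249.8 and 513 CPM in MN-Exp, 537 and 157 CPM in MN-Ctrl, 408 and 425 CPM in MNB, and 0.712 and 0.623 CPM in NP. The neobladder groups overlapped each other and MNB, while NP lay below every other library. MN-Exp over NP was 9.14 ± 0.85 on the log2 scale (adjusted p = 7.95e-05). MN-Exp over MN-Ctrl was 0.14, with an interval from -1.14 to 1.41 (adjusted p = 0.892), and it moved with each library of either group. Without MN-Ctrl replicate 1 it was 1.31 and passed (adjusted p = 0.0198), and without MN-Ctrl replicate 2 it was -0.49 (adjusted p = 0.392). Without MN-Exp replicate 1 or 2 it was 0.58 or -0.46 (adjusted p = 0.649 or 0.762).

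NR3C2 (ENSSSCG00000037766, chromosome 8, 80303172 to 80669050) was present in every tissue, peritoneum included. It stood at 4.06 and 5.83 CPM in MN-Exp, 36.5 and 12.9 CPM in MN-Ctrl, 5.57 and 9.03 CPM in MNB, and 9.46 and 10.9 CPM in NP. Both MN-Ctrl libraries were above all others, and the MN-Exp and MNB libraries overlapped. NR3C2 fell in MN-Exp against MN-Ctrl with a log2 fold change of -2.33 ± 0.55 (adjusted p = 0.0137), which did not pass on library totals (-1.72, adjusted p = 0.106) or without MN-Exp replicate 1 (0.114), MN-Exp replicate 2 (0.0717) or MN-Ctrl replicate 1 (-1.36, adjusted p = 0.0553). A noncoding RNA overlaps its span. Within libraries there were 1.63 and 1.14 counts of NR3C2 per 100 of HSD11B2 in MN-Exp (1.2 to 2.16 and 0.873 to 1.46), 6.80 and 8.24 in MN-Ctrl (6.07 to 7.60 and 6.35 to 10.5), and 1.36 and 2.12 in MNB (1.06 to 1.73 and 1.76 to 2.54). The MN-Ctrl ratios were above those of MN-Exp and MNB; in NP, with only 7 counts of HSD11B2 in each library against 93 and 123 of NR3C2, no ratio was computed.

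Over the 9 genes, MN-Exp against MN-Ctrl gave 2 that rose (SCNN1B and SCNN1G) and 4 that fell (SLC9A3, SLC12A2, ATP1B1 and NR3C2), where 21.7% of all genes tested passed, 10.4% higher and 11.3% lower. With 1 library left out, the 3584 genes behind that share became 1396 (without MN-Exp replicate 2) to 6358 (without MN-Ctrl replicate 1). On library totals 3 rose (these 2 and SCNN1A) and 1 fell (SLC9A3). Without MN-Exp replicate 2 only SCNN1B and SCNN1G passed, and without MN-Exp replicate 1 they passed with ATP1B1. Against MNB, 0 of the 9 passed in MN-Exp, and the share over all genes was 0.0967%, 0.0423% higher and 0.0544% lower, with 1326 of 16549 genes at an unadjusted p under 0.05; the 16 genes behind that share became 3 (without MN-Exp replicate 1) to 297 (without MN-Ctrl replicate 1). SCNN1A and ATP1B1 were the members below that unadjusted level, and DESeq2 called these 2. A count of 0 against such a background does not separate these genes from any others. Against NP, 4 rose in MN-Exp (SCNN1B, SCNN1G, SLC9A2 and HSD11B2) and 0 fell, where 24.2% of all genes passed, 12.4% higher and 11.8% lower. The median log2 fold change of the 9 genes was -0.99 for MN-Exp over MN-Ctrl, -0.26 over MNB and 1.11 over NP, beside 0.11, 0.02 and -0.01 over all genes.

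**Figure D3:**
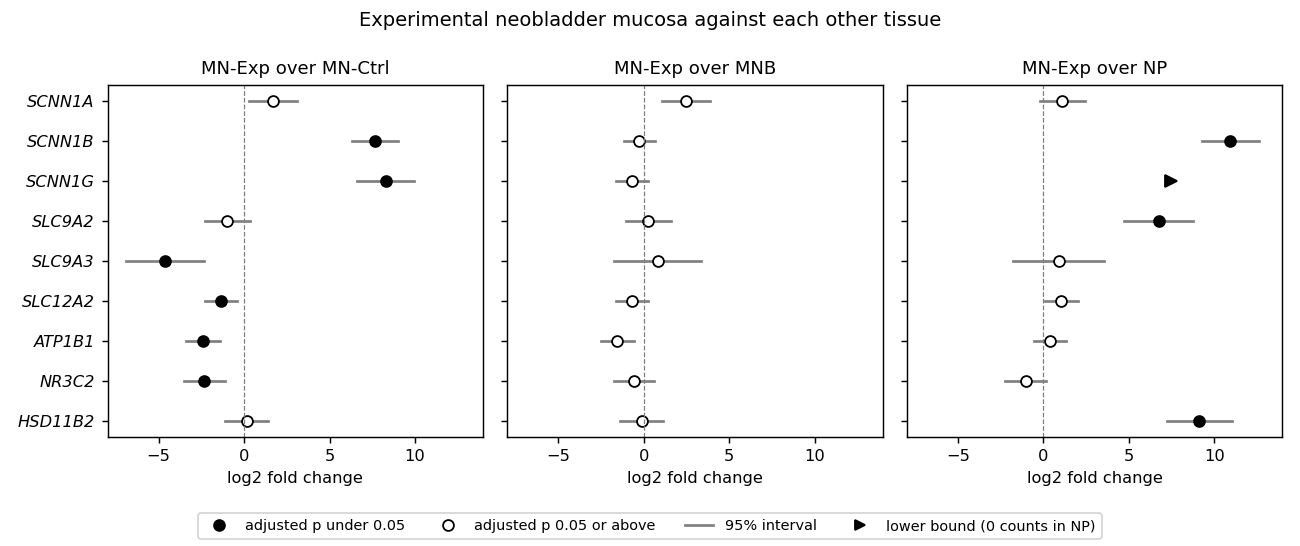
Log2 fold changes of the 9 genes in MN-Exp over MN-Ctrl, over MNB and over NP, with 95% intervals; filled points have an adjusted p under 0.05, and the triangle is the lower bound for SCNN1G, which had 0 counts in NP. SCNN1B and SCNN1G lie far to the right against MN-Ctrl and NP and near 0 against MNB.

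The control neobladder differed from the normal bladder in 4 members, in a comparison that shares its libraries with those above. In MN-Ctrl against MNB, SCNN1B and SCNN1G fell, with log2 fold changes of -7.90 ± 0.61 and -8.97 ± 0.74 (adjusted p = 4.11e-05 and 8.06e-05), and SLC9A3 rose by 5.44 ± 1.09 (adjusted p = 0.00608, and 0.0638 without MNB replicate 2). NR3C2 rose by 1.77 ± 0.53 (adjusted p = 0.0385) but passed in only 6 of 14 settings. These 4 of 9 genes stand beside 22.3% of all genes, 11.2% higher and 11.1% lower. ATP1B1, at 0.87 ± 0.43, did not pass (adjusted p = 0.164, and 0.00643 without MN-Ctrl replicate 2), nor did HSD11B2, at -0.26 ± 0.57 (adjusted p = 0.772, and 0.0128 with -1.43 without MN-Ctrl replicate 1).

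Against peritoneum, MN-Ctrl had 6 members that rose and 0 that fell, where 42.3% of all genes passed, 21.6% higher and 20.6% lower. SLC9A2 was 253 times higher by counts (counting interval 86.1 to 1231), HSD11B2 rose by 9.0 ± 0.85 on the log2 scale, SLC9A3 by 5.51 ± 1.11, ATP1B1 by 2.81 ± 0.45 and SLC12A2 by 2.41 ± 0.45. SCNN1B also passed (adjusted p = 0.0277) on 8 counts against 1, a ratio of 11.6 with a counting interval from 1.55 to 514. That call was lost on library totals (adjusted p = 0.0869) and without NP replicate 2 (0.134). The SLC12A2 call was lost on library totals (adjusted p = 0.0606).

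In NP against MNB 6 members fell and 0 rose, where 21.1% of all genes passed, 9.93% higher and 11.1% lower. SCNN1G was at least 283-fold lower, SCNN1B was 2965 times lower by counts (interval 532 to 117141) and SLC9A2 was 96.1 times lower (32.6 to 468). HSD11B2 fell, with a log2 fold change of -9.26 ± 0.86 (adjusted p = 9.1e-05), and SLC12A2 and ATP1B1 fell as given above. NR3C2 and SCNN1A did not pass, at 0.48 with an interval from -0.68 to 1.65 and at 1.35 from -0.03 to 2.73.

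Partner genes of these transporters were followed in 5 lists of 54 genes, of which 43 had an identifier in the files and passed the filter. In MN-Exp against MN-Ctrl 7 rose and 12 fell, 44.2% of those tested beside 21.7% of all genes, and in MN-Exp against MNB 0 of 43 passed, beside 0.0967%. In MN-Ctrl against MNB 9 were higher and 7 lower, 37.2% beside 22.3% of all genes, and in MN-Exp against NP 14 were higher and 5 lower, 44.2% beside 24.2%. In MN-Ctrl against NP 19 were higher and 9 lower, 65.1% beside 42.3%, and in NP against MNB 6 were higher and 14 lower, 46.5% beside 21.1%.

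Among 15 genes of sodium-proton exchange, 3 rose and 5 fell in MN-Exp against MN-Ctrl, with a median log2 fold change of 0.27. SLC9A4, which encodes the basolateral exchanger NHE4, averaged 181 ± 101 CPM in MN-Exp and 0.646 ± 0.145 CPM in MN-Ctrl, a log2 fold change of 8.14 ± 0.71 (adjusted p = 6.9e-05), with 189.6 ± 13.5 CPM in MNB and 2 counts in NP. SLC9A7, of intracellular membranes, averaged 7.25 ± 2.79 CPM in MN-Exp and 1.22 ± 1.2 CPM in MN-Ctrl, and rose (adjusted p = 0.0379).

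The 3 genes of this list with the largest fall in MN-Exp were PDZK1, SLC26A3 and CHP2. PDZK1, a scaffold that anchors brush border transporters, averaged 0.220 ± 0.0486 CPM in MN-Exp and 549 ± 71.8 CPM in MN-Ctrl. CHP2, a calcium-binding cofactor of sodium-proton exchangers, averaged 9.13 ± 2.05 against 744 ± 253 CPM, and SLC26A3, the chloride-bicarbonate exchanger that pairs with NHE3 in salt absorption, 0.636 ± 0.541 against 161 ± 82.3 CPM (log2 fold changes of -11.2, -6.35 and -7.98, adjusted p = 1.49e-05, 9.8e-05 and 0.000285). The scaffold NHERF1 did not pass, at 159 ± 25.5 CPM in MN-Exp and 299 ± 225 CPM in MN-Ctrl (adjusted p = 0.252). Ezrin (EZR), with the highest mean CPM of the list over the 8 libraries, uncorrected for length, had 718 ± 111 CPM in MN-Exp and 690.5 ± 573 CPM in MN-Ctrl (adjusted p = 0.965).

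Of 4 sodium pump genes tested, FXYD3 was the 1 that rose. This small regulator of the pump averaged 489.6 ± 9.82 CPM in MN-Exp, 64.9 ± 12.0 CPM in MN-Ctrl, 496 ± 12.5 CPM in MNB and 1.58 ± 0.791 CPM in NP, with a log2 fold change in MN-Exp over MN-Ctrl of 2.92 ± 0.45 (adjusted p = 0.00142).

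Of 6 channel-activating proteases and their inhibitors, 1 rose and 0 fell. TMPRSS4, a membrane protease that can cleave ENaC, averaged 344 ± 59.1 CPM in MN-Exp, 17.0 ± 10.8 CPM in MN-Ctrl, 238 ± 63.7 CPM in MNB and 0.324 ± 0.171 CPM in NP, a log2 fold change of 4.33 ± 0.56 over MN-Ctrl (adjusted p = 0.00052). Prostasin (PRSS8), another activator of the channel, stood at 59.7 ± 9.30 against 114 ± 75.1 CPM and did not pass (adjusted p = 0.341). The inhibitor SPINT2 had the highest mean CPM of its list over the 8 libraries, with 703 ± 124 CPM in MN-Exp and 593 ± 65.7 CPM in MN-Ctrl (adjusted p = 0.711).

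Of 8 genes of ENaC regulation and corticosteroid response, 1 rose and 3 fell in MN-Exp against MN-Ctrl. SGK1, the aldosterone-induced kinase that keeps ENaC at the membrane, had the highest mean CPM of its list and did not pass, with 165 ± 26.9 CPM in MN-Exp and 258 ± 62.7 CPM in MN-Ctrl (adjusted p = 0.388). NEDD4L, the ubiquitin ligase that removes ENaC, stood at 61.0 ± 3.5 against 33.4 ± 21.9 CPM (adjusted p = 0.195). The steroid-responsive FKBP5 fell, at 19.6 ± 6.76 against 58.9 ± 24.0 CPM (adjusted p = 0.0256), while PER1, a clock gene that also responds to steroids, rose, at 30.0 ± 4.22 against 9.50 ± 1.79 CPM (adjusted p = 0.013). The ligase NEDD4 and the deubiquitinase USP2 fell, with log2 fold changes of -1.51 and -1.83 (adjusted p = 0.0265 and 0.0444). The glucocorticoid receptor gene NR3C1 averaged 19.4 ± 1.73 CPM in MN-Exp, 21.0 ± 2.32 CPM in MN-Ctrl, 21.6 ± 1.88 CPM in MNB and 78.7 ± 3.51 CPM in NP.

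Of 10 genes of cation-chloride cotransport and chloride secretion, 1 rose and 3 fell. CFTR, the apical chloride channel fed by NKCC1, averaged 0.554 ± 0.653 CPM in MN-Exp and 25.3 ± 14.8 CPM in MN-Ctrl (log2 fold change -5.46 ± 0.87, adjusted p = 0.00182). The chloride channel CLCN2 averaged 0.771 ± 0.612 against 18.2 ± 15.1 CPM (adjusted p = 0.00668), and KCNE3, the basolateral potassium channel subunit that supports secretion, 47.2 ± 22.0 against 117 ± 22.3 CPM (adjusted p = 0.0469). SLC12A4, the potassium-chloride cotransporter KCC1, rose, at 60.3 ± 13.3 against 17.3 ± 8.88 CPM (adjusted p = 0.0149).

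**Figure D4:**
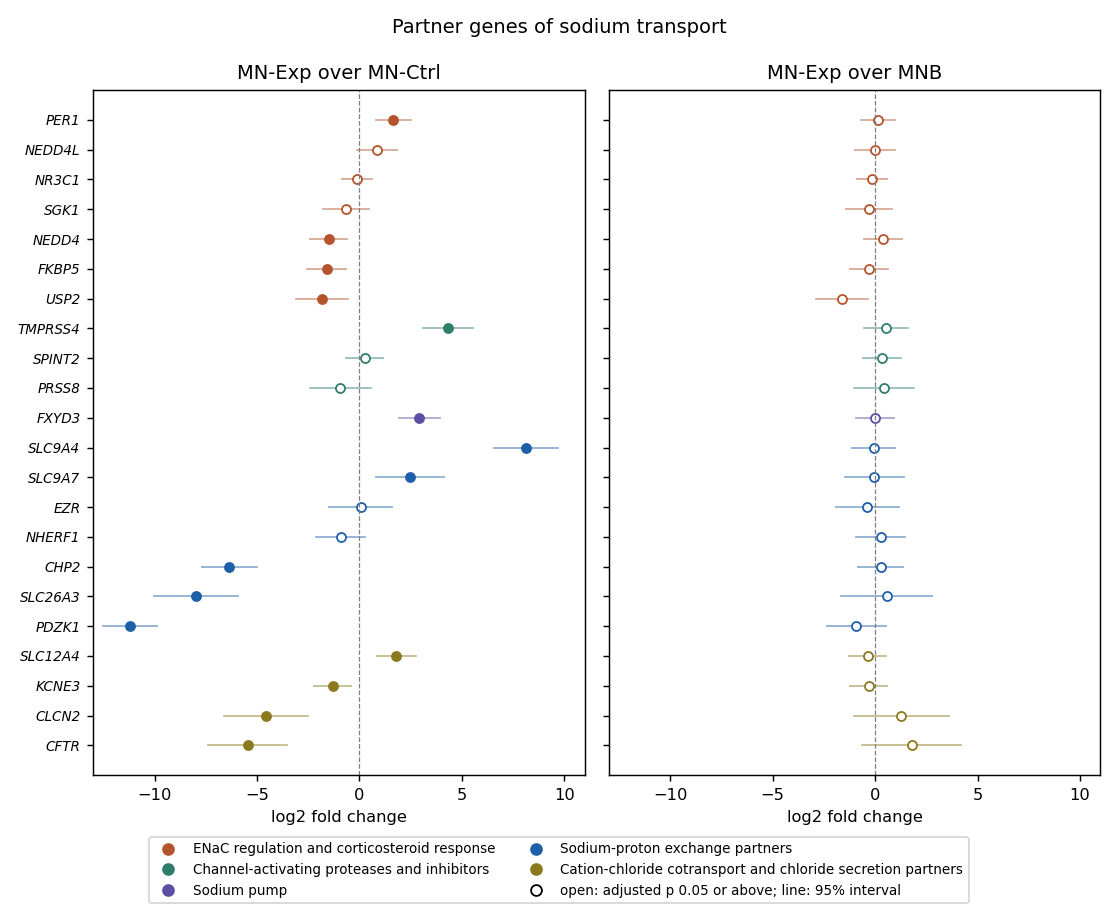
Log2 fold changes with 95% intervals of the partner genes named in the text, most of them chosen for their change over MN-Ctrl or their abundance, in MN-Exp over MN-Ctrl and over MNB, coloured by list and ordered within each list by the first comparison; filled points have an adjusted p under 0.05. SLC9A4 and PDZK1 mark the extremes over MN-Ctrl at 8.14 and -11.2, and no point is filled over MNB.

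Genes with the most similar levels over the 8 libraries were sought among 9857 genes by Pearson correlation of log2 CPM, a description with no test. For SCNN1B these were PROM2, C16orf89 and GGT6 (r = 0.997 to 0.999), and for SCNN1G ATP2C1, CERS3 and TMEM213 (all 0.997). PROM2 averaged 56.2 CPM in MN-Exp, 0.389 CPM in MN-Ctrl, 59.9 CPM in MNB and 0 CPM in NP. For SLC9A3 the nearest was MUC2, the secreted mucin of goblet cells (r = 0.987), at 1.08 CPM in MN-Exp, 767 CPM in MN-Ctrl, 1.04 CPM in MNB and 0.413 CPM in NP. HSD11B2 was nearest to IDH1, DENND2D and GPA33 (0.995 to 0.998), and SLC9A2 to IQGAP2, WDR20 and LCP1 (0.989 to 0.994). GPA33, an intestinal surface antigen, averaged 192 CPM in MN-Exp, 248 CPM in MN-Ctrl, 199 CPM in MNB and 0.184 CPM in NP. Likeness was lower for SCNN1A, with SCCPDH at 0.903 as the nearest, and for NR3C2, with ALDH6A1 at 0.972.

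Markers of other cell types moved with these groups. The 5 general epithelial markers measured summed to 2893 and 3567 CPM in MN-Exp, 8130 and 5646 CPM in MN-Ctrl, 4028 and 3056 CPM in MNB, and 997 and 2388 CPM in NP. KRT8 alone gave 937 and 2269 CPM of the NP sums, where EPCAM, KRT18 and ESRP1 averaged 2.32, 2.28 and 0.0445 CPM. It also gave 5028 to 6586 CPM of the MN-Ctrl sums. CDH1, KRT18 and ESRP1 were lower on average in MN-Ctrl, at 383, 93.0 and 35.2 CPM, against 901, 138 and 107 CPM in MN-Exp. EPCAM averaged 569 CPM in MN-Ctrl and 477 CPM in MN-Exp. The 4 goblet cell markers summed to 738 and 109 CPM in MN-Exp, 8810 and 27645 CPM in MN-Ctrl, 343 and 462 CPM in MNB, and 6.71 and 5.52 CPM in NP. TFF3 alone gave 735 and 106 CPM of the MN-Exp sums and 338 and 458 CPM of the MNB sums, while MUC2 averaged 1.08 CPM in MN-Exp, 767 CPM in MN-Ctrl and 1.04 CPM in MNB. The 5 fibroblast markers summed to 2772 and 2782 CPM in MN-Exp, 1643 and 849 CPM in MN-Ctrl, 10325 and 9755 CPM in MNB, and 42535 and 57107 CPM in NP. COL1A1, COL1A2 and LUM averaged 850, 1324 and 270 CPM in MN-Exp, against 225, 512 and 137 CPM in MN-Ctrl. DCN and PDGFRA went the other way, at 313 and 19.9 CPM in MN-Exp against 339 and 32.6 CPM in MN-Ctrl. NP had the highest fibroblast sums, as it had the highest endothelial and adipocyte sums given below. The 4 smooth muscle markers summed to 3250 and 3657 CPM in MN-Exp and 534 and 399 CPM in MN-Ctrl, with 2939 and 3225 CPM in MNB and 606 and 654 CPM in NP. The 5 leukocyte markers summed to 230 and 120 CPM in MN-Exp and 620 and 1410 CPM in MN-Ctrl, with 196 to 219 CPM in MNB and 97.1 to 123 CPM in NP. The 3 endothelial markers summed to 333 to 366 CPM in MN-Exp, 93.2 to 158 CPM in MN-Ctrl, 342 to 406 CPM in MNB and 1385 to 1856 CPM in NP, and the 4 adipocyte markers reached 1069 CPM in NP and no more than 6.86 CPM elsewhere. The part of these cell types, and of the urothelial and intestinal ones above, in the results for the 9 genes was not tested.

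**Figure D5:**
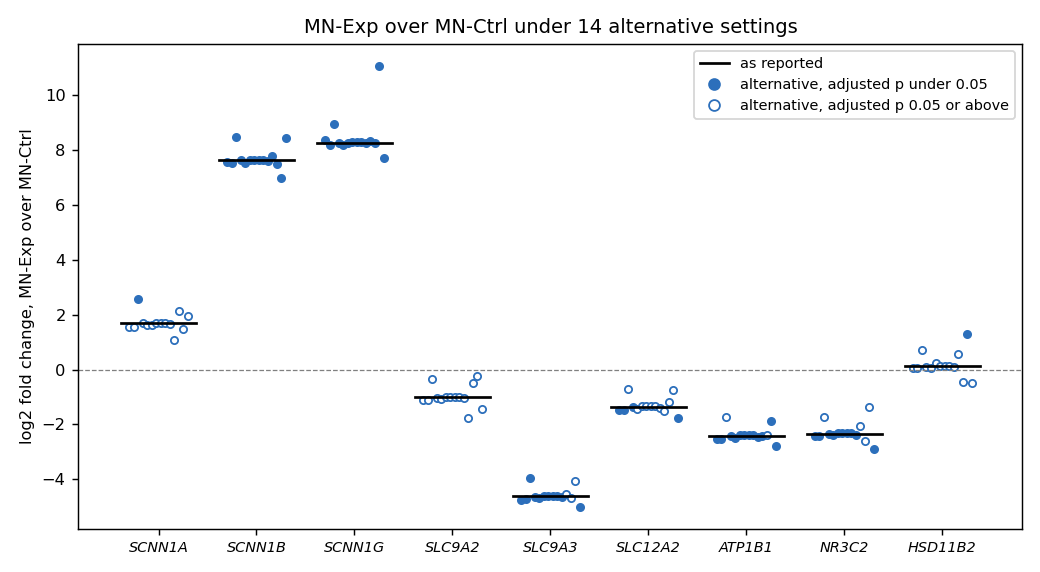
Log2 fold changes of the 9 genes in MN-Exp over MN-Ctrl as reported (lines) and under 14 alternative settings (points, filled where the adjusted p is under 0.05). SCNN1B and SCNN1G are filled in all 14, SLC12A2 in 4, and HSD11B2 crosses 0.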

How the data were processed

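The deposited values were whole-number counts per Ensembl gene, 1 file for each of 8 libraries. Per the labels' protocols, RNA was extracted with RNeasy, amplified by Smart-seq2 and sequenced on an Illumina HiSeq instrument. Per the submitters' processing notes, Trim Galore, HISAT2, HTSeq 0.11.1 and Sscrofa11.1 were used; their settings, the strand setting and the annotation release are not given in the sources used here. Multimapped or overlapping reads could therefore shift single genes.

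Counts were filtered with filterByExpr, scaled by TMM and fitted in edgeR 4.0.16 (R 4.3.3) with its robust quasi-likelihood test, all 8 libraries in 1 fit with 4 residual degrees of freedom, and p-values were adjusted by Benjamini-Hochberg over 16549 genes in each of 6 comparisons. DESeq2 1.42.0, other scalings and filters, a replicate block and leaving out each library were alternatives. A count of 0 was bounded by 3 counts over the group, and counting intervals are exact 95% intervals that cover counting error only. Replicates differed by more than sampling noise, most of all in MN-Ctrl. Chi-square per gene, on library totals, was 295.4 in MN-Ctrl, 35.7 in MN-Exp, 32.9 in MNB and 24.9 in NP. Log2 CPM of these pairs correlated at r = 0.92, 0.967, 0.972 and 0.94, in that order. The members and lists were chosen with earlier results of these data known. All 9 members were named, as were the gene of each partner list with the highest mean CPM and up to 3 per direction with the largest change between the neobladders. The 3 genes most like a member were named for SCNN1B, SCNN1G, SLC9A2 and HSD11B2. Only the nearest was named for SCNN1A, SLC9A3 and NR3C2, and none for SLC12A2 and ATP1B1. NEDD4L, NR3C1, PRSS8 and NHERF1 were added after their values were seen. Some partner genes that the rule selects are counted but not reported here.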

Additional observations from a re-analysis of the deposited data

How the results depend on the processing

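Over 54 pairs of gene and comparison and 14 alternative settings, a value was kept only where the gene was tested and at least 1 group had more than 3 counts. SCNN1G in MN-Ctrl against NP therefore gave no value. Of the 737 values kept, 669 held their direction and their side of the threshold, 41 lost the call, 16 gained it and 11 changed sign. In MN-Exp against MNB 2 members passed with DESeq2, 1 without the low-count filter and 2 with the 2 groups alone, where 0 passed as reported. With 1 library left out, the number passing ran from 2 to 6 in MN-Exp against MN-Ctrl, from 0 to 1 in MN-Exp against MNB, from 2 to 5 in MN-Ctrl against MNB, from 4 to 5 in MN-Exp against NP, from 5 to 6 in MN-Ctrl against NP and from 4 to 6 in NP against MNB; a lone library was assumed to vary like the other groups. Each sign change was in a difference that did not pass as reported. With 1 library left out, HSD11B2 ran from -0.49 to 1.31 in MN-Exp over MN-Ctrl (-0.46 without MN-Exp replicate 2), from -0.73 to 0.31 in MN-Exp over MNB and from -1.43 to 0.37 in MN-Ctrl over MNB, SLC9A2 from -0.51 to 0.77 in MN-Exp over MNB (-0.01 without MNB replicate 2), and SLC9A3 from -4.12 to 1.16 in NP over MNB (0.81 without NP replicate 1). On library totals SCNN1A and SLC12A2 in MN-Ctrl over MNB moved to -0.17 and -0.07. SLC9A3 in NP over MNB moved to 0.00 with the replicate block. Over all genes, the 2 groups alone gave 2340 calls against 3584 (MN-Exp against MN-Ctrl), 453 against 16 (MN-Exp against MNB), 2294 against 3686 (MN-Ctrl against MNB), 6215 against 3998 (MN-Exp against NP) and 5804 against 3486 (NP against MNB); in MN-Exp against MNB, DESeq2 gave 249, no low-count filter 352 and library totals 5. With 1 library left out, these counts ran from 1396 to 6358 (MN-Exp against MN-Ctrl), 3 to 297 (MN-Exp against MNB), 1442 to 6485 (MN-Ctrl against MNB), 1762 to 6444 (MN-Exp against NP), 4671 to 8279 (MN-Ctrl against NP) and 1343 to 5795 (NP against MNB). The cause was not tested. Same-numbered libraries did not deviate together (correlations of -0.0795 to 0.0911). Different tissues of 1 animal need not deviate together, so these correlations cannot decide whether the numbers pair libraries. With the replicate block 5, 0, 3, 4, 6 and 6 members passed in the 6 comparisons, in the order above. With 2 libraries a group, genes at a few counts, such as SLC9A3 outside MN-Ctrl, limit what can be seen.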
